A study of Mus musculus with 22 samples.

Results

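In all, 10 genes of fibroblast growth factor (FGF) signalling were followed in mouse muscle stem cells. They were chosen by name, with earlier results of these data known. The set holds the receptor genes Fgfr1, Fgfr2, Fgfr3 and Fgfr4 and the kinase-lacking receptor gene Fgfrl1. It also holds the ligand genes Fgf2 and Fgf7 and the inhibitor genes Spry1, Spry2 and Spry4. The members are 10 of the 43430 genes in the deposited files, and all 10 passed the filter on low counts. RNA was sequenced from ZsGreen-positive cells of hindlimb muscle of Pax7-zsgreen mice, in which the green fluorescent protein ZsGreen marks cells that express the stem cell factor Pax7. There were 8 libraries from day 1 and 8 from day 3 after muscle injury by cardiotoxin (a myofiber-killing snake venom protein) and 6 from uninjured muscle. Each state was divided into ZT16 and ZT4, zeitgeber times in hours after lights on, with 4 libraries per time at day 1, 4 at day 3 and 3 in uninjured muscle. The uninjured libraries carry a time as well, and whether the times are those of injury or of collection is not stated. The series' design text names ZT16 and day 1 alone. All mice carried the same reporter and were perfused with a mild paraformaldehyde fixative before the cells were extracted. The labels give no age or sex, and do not say whether the libraries of a group came from separate mice, so p-values measure the spread between these libraries, which may be partly technical.

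FGFs are secreted proteins that bind receptor tyrosine kinases together with heparan sulfate. The activated receptors recruit the adaptor FRS2 and signal through Ras and the kinase ERK, and Sprouty proteins are induced by this signal and restrain it. In mouse muscle, FGF2 is a known mitogen of stem cells, Fgfr1 and Fgfr4 are the receptor genes best known in the myogenic lineage, and Spry1 is known for its part in quiescence.

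Library totals ran from 5965957 to 9751536 estimated counts. Genes above 0 counts numbered 23267 and 20759 in day 3 ZT4 replicates 1 and 2, and 20414 in day 3 ZT16 replicate 4. Uninjured libraries had 15875 to 17969, and the part of this difference in genes at low levels was not tested. Levels within a gene are given below as CPM, counts scaled to a common library size, with a TMM factor that corrects for differences in RNA composition, and levels between genes as TPM, which take transcript length into account. Pax7 averaged 322 CPM in uninjured muscle, 58.2 at day 1 and 22.6 at day 3, and Myod1, the factor of activated myogenic cells, 253, 1339 and 816 CPM in the same order. Some libraries stood apart from their group in the summed level of 15 immediate early genes. It was 84630 and 73320 CPM in uninjured ZT16 replicates 1 and 3, against 4335 in replicate 2 and 1821 to 5021 at uninjured ZT4. At day 1, ZT16 replicate 4 had 3138 CPM, against 12450 to 17340 in the other 7 libraries. Markers of other cells also moved with the state: 14 macrophage and monocyte markers summed to 1510 to 4274 CPM at day 1 and 406 to 1247 at day 3, against 23.8 to 129 in uninjured muscle. The sums of 14 fibro-adipogenic markers were 1449 to 2222 CPM at day 1 and 2369 to 4860 at day 3, against 6386 to 7738 in uninjured muscle, and these sums are carried by a few abundant genes such as Gsn (806 CPM on average at day 1 and 297 at day 3, against 2981). Counted by gene, 2 of the 14 rose and 9 fell at day 1, while 8 rose and 4 fell at day 3, with a median log2 change of 1.38. Pdgfra, which defines those cells, averaged 5.16 CPM at day 1 and 14.2 at day 3, against 1.08 in uninjured muscle. In bulk RNA, fewer cells of a type and less RNA per cell cannot be told apart, and the part of other cells in the results was not tested.

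Receptor transcripts come in forms that differ in their extracellular domains, and 1 exon of Fgfr1 is shown because it separates the forms described below. Fgfr1 lies on chromosome 8 (GRCm38, 25513654 to 25575718, plus strand). The sequence is the exon of its first immunoglobulin-like (Ig) domain, chr8:25555508-25555774, which the long form holds and the short form skips. It is exonic coding sequence of Fgfr1-202 in GENCODE M21 on GRCm38.
Fgfr1 first Ig exon: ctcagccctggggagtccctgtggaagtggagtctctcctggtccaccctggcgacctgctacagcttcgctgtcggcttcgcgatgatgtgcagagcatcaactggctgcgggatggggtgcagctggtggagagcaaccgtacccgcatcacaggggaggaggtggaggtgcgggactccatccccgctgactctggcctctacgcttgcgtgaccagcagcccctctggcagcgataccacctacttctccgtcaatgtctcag

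Per length, Fgfr1 and Fgfr4 were the leading members in every state. In uninjured muscle Fgfr1 averaged 393 ± 71.2 TPM and Fgfr4 373 ± 66.3 TPM (SD, n = 6), and the ranges of these neighbours overlapped. Spry1 came next with 209 ± 91.6 TPM and overlapped Fgfr4. Spry4 and Spry2 followed with 17.6 ± 12.3 and 13.5 ± 3.64 TPM, and their ranges overlapped as well. Fgfrl1 had 4.52 TPM, Fgf2 2.75, Fgfr2 2.51, Fgfr3 1.73 and Fgf7 1.10 TPM, and each of these overlapped the next in the order. The place of Fgfr2 differed by time: it was sixth at uninjured ZT16 with 4.94 TPM and last at uninjured ZT4 with 0.07 TPM. At day 1 the order of the leading genes was the same, with Fgfr1 at 94.0 ± 19.1, Fgfr4 at 88.5 ± 21.0 and Spry1 at 55.0 ± 12.7 TPM (n = 8). At day 3, Fgfr4 stood above Fgfr1, with 67.3 ± 7.99 against 50.3 ± 4.33 TPM. Their ranges did not overlap within ZT4 or within ZT16, although they met when the times were pooled.

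Fgfr1 and Fgfr4 together made up nearly the whole receptor RNA. Fgfr1 took 50.9 ± 3.27% of the TPM of the 4 kinase receptors in uninjured muscle, 50.8 ± 2.49% at day 1 and 42.1 ± 2.24% at day 3. Fgfr4 took 48.6 ± 3.55%, 47.5 ± 2.31% and 56.1 ± 2.58% in the same order. Fgfr2 and Fgfr3 stayed at or below 2.59% each in all 22 libraries. The summed receptor level was 770 ± 131 TPM in uninjured muscle, 186 ± 40.0 at day 1 and 120 ± 11.5 at day 3. Among the Sprouty genes, Spry1 took 87.1 ± 1.32% in uninjured muscle, 60.9 ± 5.46% at day 1 and 70.8 ± 4.94% at day 3. The share of Spry2 was 6.12 ± 1.90%, 20.7 ± 2.65% and 14.6 ± 4.37%, and that of Spry4 6.74 ± 1.59%, 18.4 ± 2.99% and 14.6 ± 3.59%.

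**Figure D1:**
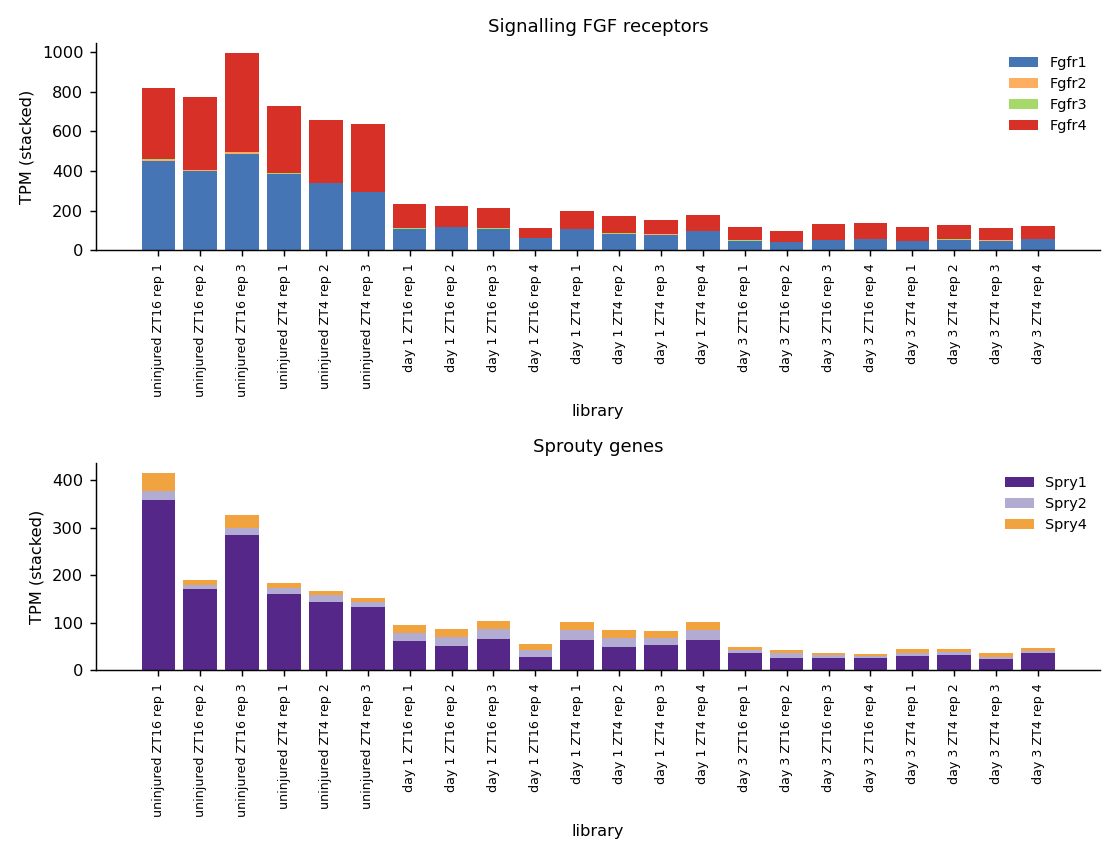
Stacked TPM of the 4 FGF receptor genes with a kinase domain (top) and of the 3 Sprouty genes (bottom), 1 bar per library, in the order uninjured, day 1 and day 3. Blue (Fgfr1) and red (Fgfr4) fill nearly all of each receptor bar, and the mean bar height is 770 TPM in uninjured muscle, 186 at day 1 and 120 at day 3.

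The first comparison asked how the cells differ at day 1 after injury from cells of uninjured muscle. Both leading receptors, the leading Sprouty gene and both ligands were lower at day 1, and Spry2 was higher. Of the 10 genes, 5 fell, against 40.6% of the 15084 genes tested, 1 rose, against 34.6%, and 4 did not pass. The 5 include both ligands, whose falls are not independent of the filter on low counts. Each ligand lost its call under some alternatives, as given below. The median log2 fold change of the members was −0.64, beside −0.125 over all genes tested. The call threshold was an adjusted p of 0.05 in edgeR's quasi-likelihood test, with both times averaged.

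Fgfr1, the main receptor for FGF2, had 158 to 289 CPM at day 1 (median 245, n = 8), against 804 to 1064 CPM in uninjured muscle (median 864, n = 6). The ranges did not overlap, and the log2 fold change was −1.94 ± 0.10 (SE, adjusted p = 7.64e-15 in edgeR). Fgfr4, a receptor gene whose loss in mice slows muscle regeneration (chromosome 13, 55152640 to 55168759, plus strand), had 117 to 255 CPM at day 1 (median 200), against 679 to 1003 CPM in uninjured muscle (median 715). Its ranges did not overlap either, and it fell by 1.99 ± 0.13 on the log2 scale (edgeR adjusted p = 5.39e-12). The lowest day 1 library for both genes was ZT16 replicate 4, and without it the changes were −1.86 for Fgfr1 and −1.90 for Fgfr4. Both kept their call under all 34 alternatives tried, at −1.66 or below for Fgfr1 and −1.67 or below for Fgfr4.

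The other receptors were scarce and did not pass. Fgfr3, a receptor best known in cartilage (chromosome 5, 33721674 to 33737068), had 1.71 to 5.59 CPM at day 1, against 0.160 to 6.59 CPM in uninjured muscle (0.21 ± 0.41, adjusted p = 0.648). Fgfrl1, which binds FGFs but has no kinase domain (chromosome 5, 108692382 to 108706924), had 5.76 to 14.7 CPM at day 1, against 4.49 to 9.90 CPM in uninjured muscle (0.36 ± 0.24, adjusted p = 0.183). Fgfr2 also missed the threshold over both times (0.40 ± 0.61, adjusted p = 0.563), but its uninjured libraries differed by time. Within ZT4 it was higher at day 1, with 28 counts in 4 libraries, against 1 count in 3 uninjured libraries (edgeR adjusted p = 0.00563), and within ZT16 it was lower, with 34 counts against 243 (log2 change −3.33, adjusted p = 0.000245).

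The ligand genes were expressed at low levels. Fgf2 (chromosome 3, 37348346 to 37410108), whose product acts on many cells through FGFR1, had 0.257 to 1.09 CPM at day 1 (median 0.614), against 1.12 to 2.48 CPM in uninjured muscle (median 1.79). The ranges did not overlap, at 2 to 8 counts per day 1 library, and Fgf2 fell by 1.45 ± 0.39 (edgeR adjusted p = 0.00196). All day 1 libraries lay under the filter's minimum count of 10, so Fgf2 was tested because of other groups, chiefly uninjured muscle. Its fall is therefore not independent of the filter. Without the filter on low counts Fgf2 missed the threshold (edgeR adjusted p = 0.0525). Fgf7 (chromosome 2, 126034658 to 126091185), also called keratinocyte growth factor, had 0 to 1.23 CPM at day 1 (median 0.148), against 0.160 to 2.26 CPM in uninjured muscle (median 1.13). It fell by 1.96 ± 0.70 (edgeR adjusted p = 0.0139), with overlapping ranges and 18 counts in total at day 1. Fgf7 too passed the filter through groups other than day 1. The call was lost without uninjured ZT4 replicate 1 (−1.38, adjusted p = 0.107) and with offsets for effective length (−1.56, adjusted p = 0.0874). Within ZT4 alone Fgf7 did not pass (−1.53, edgeR adjusted p = 0.163), and within ZT16 alone it did (−2.38, adjusted p = 0.0417). The fibro-adipogenic sums were lower at day 1 in the same libraries, but the markers did not move together. Of the 14, 2 rose and 9 fell, and Pdgfra averaged 5.16 CPM, against 1.08 in uninjured muscle. The part of those cells in the ligand results was not tested. Fgf2 shares 640 exonic bases with the antisense gene Nudt6, and without stated strand in the counting the reads cannot be told apart. Nudt6 averaged 87.7 counts per library, against 81 Fgf2 counts over the 6 uninjured libraries together, and its part was not tested.

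The Sprouty genes moved in different directions. Spry1 (chromosome 3, 37639947 to 37644598, plus strand) had 53.0 to 118 CPM at day 1 (median 107), against 252 to 584 CPM in uninjured muscle (median 266). The ranges did not overlap and Spry1 fell by 1.75 ± 0.16 (edgeR adjusted p = 6.6e-09). Spry2 (chromosome 14, 105891947 to 105896819), another inhibitor of receptor tyrosine kinase signalling, had 22.6 to 31.2 CPM at day 1 (median 28.3), against 12.1 to 25.9 CPM in uninjured muscle (median 17.9). It rose by 0.53 ± 0.19 (edgeR adjusted p = 0.0128), with overlapping ranges, and did not pass within ZT4 (0.59, adjusted p = 0.0539) or within ZT16 (0.48, adjusted p = 0.116) alone. Without uninjured ZT16 replicates 1 and 3 it was at 0.98 (adjusted p = 0.000712).
Spry4 (chromosome 18, 38586247 to 38601415), a family member that also restrains ERK signalling, had 50.5 to 63.3 CPM at day 1 (median 55.1), against 30.1 to 120 CPM in uninjured muscle (median 33.9). It did not pass (0.16 ± 0.18, adjusted p = 0.437). All day 1 values lay above 4 of the 6 uninjured libraries and below the other two, which were ZT16 replicates 1 and 3. Without these 2 libraries Spry4 was higher at day 1 (0.89, edgeR adjusted p = 2.37e-05), and within ZT4 as well (0.87, adjusted p = 0.0067).

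**Figure D2:**
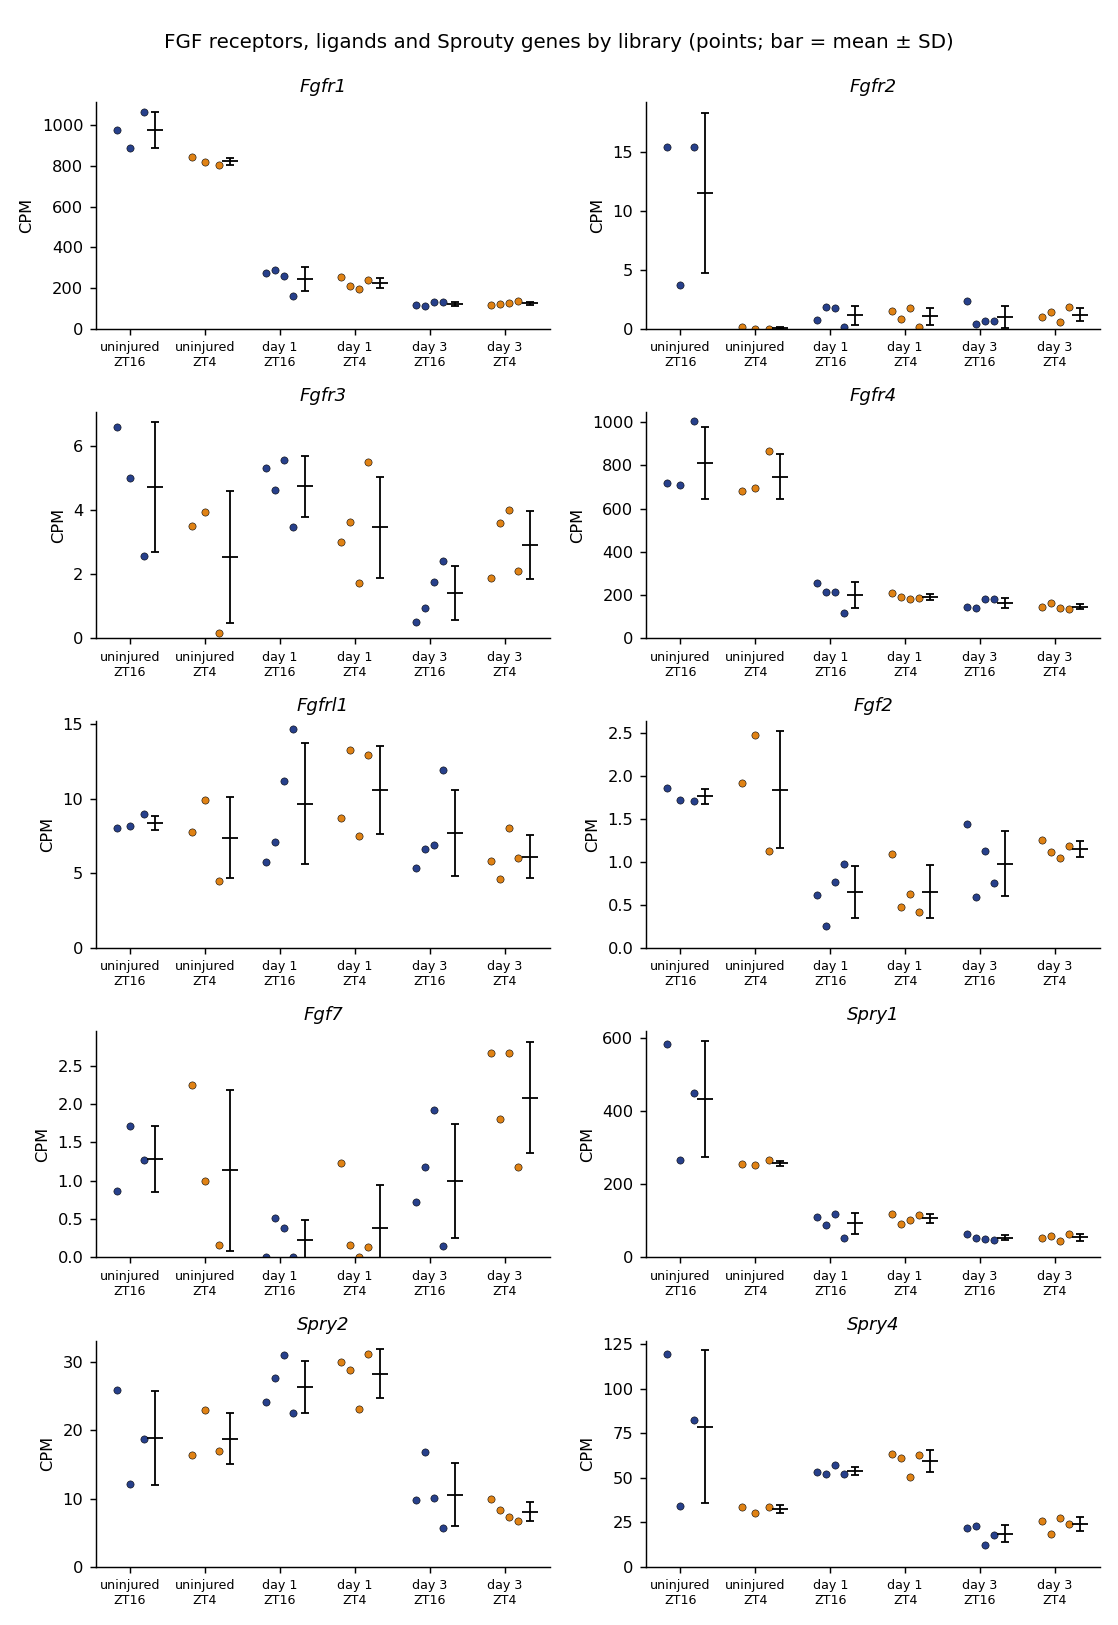
CPM of the 10 genes, 1 panel per gene with a linear axis from 0, 1 point per library (blue ZT16, orange ZT4) and the mean ± SD beside the points of each group. Fgfr1, Fgfr4 and Spry1 drop after injury in both times, Spry2 peaks at day 1, and Fgfr2, Spry1 and Spry4 have high points in uninjured ZT16.

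The second comparison set day 3 against uninjured muscle. The receptor genes Fgfr1 and Fgfr4 and all 3 Sprouty genes were lower at day 3, and neither ligand passed. Of the 10 genes, 5 fell, beside 39.1% of all genes tested, none rose, beside 37.9%, and 5 did not pass, with 2 of 10 log2 changes above 0. The median log2 change of the members was −0.92, beside −0.026 over all genes.

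Fgfr1 had 111 to 133 CPM at day 3 (median 124, n = 8), below every uninjured library, and fell by 2.87 ± 0.10 (edgeR adjusted p = 6.28e-18). Fgfr4 had 137 to 183 CPM (median 143) and fell by 2.35 ± 0.13 (edgeR adjusted p = 2.67e-13). Spry1 had 43.1 to 63.6 CPM (median 52.9) and fell by 2.63 ± 0.17 (edgeR adjusted p = 1.41e-11). For these 3 genes the groups did not overlap and every one of the 34 alternatives kept the call, also within ZT4 alone and within ZT16 alone.
Spry2 had 5.74 to 16.8 CPM at day 3 (median 9.05), against 12.1 to 25.9 CPM in uninjured muscle, and fell by 1.03 ± 0.19 (edgeR adjusted p = 3.35e-05). Spry4 had 12.3 to 27.2 CPM (median 22.3), below every uninjured library, and fell by 1.26 ± 0.19 (edgeR adjusted p = 2.65e-06). Within ZT4 the change of Spry4 was −0.44 and did not pass (adjusted p = 0.147). Without uninjured ZT16 replicates 1 and 3 it was −0.58 (adjusted p = 0.00123), and that of Spry2 was −0.64 (adjusted p = 0.0131). Among the low genes, Fgf2 was at −0.76 ± 0.38 (adjusted p = 0.0725), Fgfr3 at −0.81 ± 0.42 (adjusted p = 0.0856), Fgfrl1 at −0.21 ± 0.25 and Fgf7 at 0.22 ± 0.62. Fgfr3 passed within ZT16 (−1.78, edgeR adjusted p = 0.012) and was at 0.16 within ZT4 (adjusted p = 0.825). Fgfr2 was at 0.44 ± 0.62, again with opposite calls within the times, higher in ZT4 at 34 counts against 1 (edgeR adjusted p = 0.00321) and lower in ZT16 (−3.47, adjusted p = 0.000145).

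The third comparison, day 3 against day 1, followed the genes between the days. Fgfr1, Fgfr3, Fgfr4, Fgfrl1 and all 3 Sprouty genes were lower at day 3, and Fgf7 was higher. Of the 10 genes, 7 fell, beside 28.7% of all genes tested, 1 rose, beside 26.7%, and 2 did not pass. The median of the members was −0.72, beside −0.017 over all genes. Both comparisons with uninjured muscle used the same 6 uninjured libraries, and the present one shares the injured libraries with them.

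Fgfr1 was lower in every day 3 library than in every day 1 library (−0.93 ± 0.09, edgeR adjusted p = 5.74e-09). Fgfr4 fell by 0.36 ± 0.12 (edgeR adjusted p = 0.0156), with overlapping ranges. It lost its call without day 1 ZT16 replicate 1 (−0.26, adjusted p = 0.0604), within ZT4 (adjusted p = 0.0636) and within ZT16 (adjusted p = 0.152). Spry2 fell by 1.56 ± 0.18 (edgeR adjusted p = 7.55e-08) and Spry4 by 1.41 ± 0.18 (edgeR adjusted p = 5.47e-07), both with ranges that did not overlap. Spry1 fell by 0.88 ± 0.16 (edgeR adjusted p = 7.88e-05), and its ranges overlapped only through day 1 ZT16 replicate 4.
Fgf7 rose, with 0.151 to 2.67 CPM at day 3 (87 counts in all) against 0 to 1.23 CPM at day 1 (2.18 ± 0.66, edgeR adjusted p = 0.00717). Day 3 was among the groups through which Fgf7 passed the filter. With effective length offsets Fgf7 was at 1.60 and missed the threshold (edgeR adjusted p = 0.0844). It also missed it within ZT16 (2.00, adjusted p = 0.106) and passed within ZT4 (2.35, adjusted p = 0.0372). Fibro-adipogenic sums were also higher at day 3 than at day 1, as given above, and their part was not tested. Fgfr3 had 0.513 to 4.01 CPM at day 3, against 1.71 to 5.59 at day 1 (−1.02 ± 0.40, edgeR adjusted p = 0.0315), and Fgfrl1 had 4.59 to 11.9 CPM, against 5.76 to 14.7 (−0.57 ± 0.23, edgeR adjusted p = 0.0366). Both overlapped between the days and lost their calls when any of several single libraries was left out, with adjusted p up to 0.0909 for Fgfr3 and 0.107 for Fgfrl1. Fgfr3 was at −0.26 within ZT4 (adjusted p = 0.737), against −1.79 within ZT16 (adjusted p = 0.0154), and at −0.72 with effective length offsets (adjusted p = 0.215). Fgf2 (0.69 ± 0.38) and Fgfr2 (0.04 ± 0.51) did not pass.

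**Figure D3:**
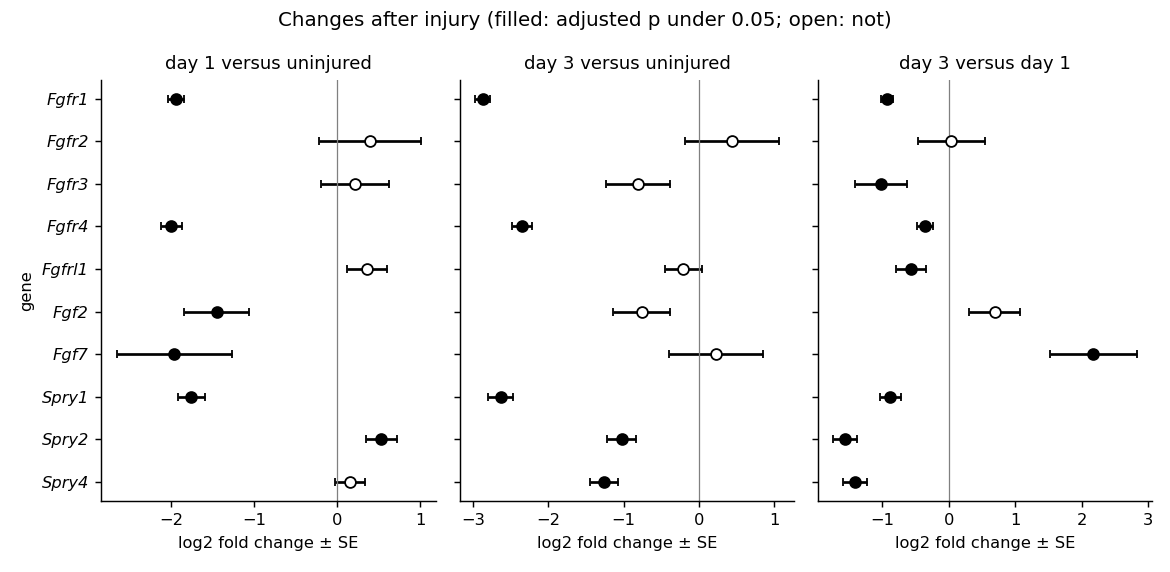
Log2 fold changes with SE of the 10 genes for day 1 versus uninjured, day 3 versus uninjured and day 3 versus day 1, filled where the adjusted p was under 0.05. Fgfr1, Fgfr4 and Spry1 lie left of 0 in all 3 panels, and Spry2 is at 0.53 in the first and −1.56 in the last.

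The split of Fgfr1 between its transcripts also differed between the states. RSEM estimates put most Fgfr1 reads on Fgfr1-203, which skips the first Ig exon shown above, and on Fgfr1-202, which holds it. Of the counts on transcripts with or without that exon, the form with it made up 41.4 ± 2.03% in uninjured muscle (38.2 to 43.5%, n = 6), 46.0 ± 3.59% at day 1 (38.2 to 50.1%, n = 8) and 55.6 ± 6.09% at day 3 (46.2 to 63.1%, n = 8). All day 3 libraries lay above all uninjured ones, while day 1 overlapped both. At day 3 the share was 46.2 to 53.8% in the ZT16 libraries and 56.8 to 63.1% in the ZT4 libraries, which did not overlap. On TPM the shares were 34.4 ± 1.95%, 39.4 ± 3.43% and 48.6 ± 5.94% for uninjured, day 1 and day 3.
The share of Fgfr1-203 in all Fgfr1 counts was 46.6 ± 2.69% in uninjured muscle, 47.8 ± 4.12% at day 1 and 36.3 ± 7.92% at day 3. The share of Fgfr1-202 was 23.7 ± 4.27%, 33.6 ± 2.93% and 37.1 ± 3.80%. These shares are a description without a test. They rest on the model of RSEM, and the files give Fgfr1-203 a length of 3259 bases against 3789 in GENCODE M21, so the authors' annotation was not the same for this transcript.

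**Figure D4:**
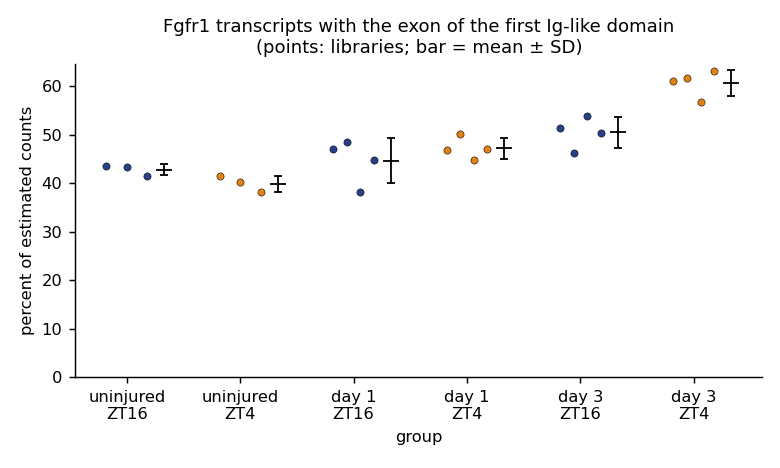
Percent of estimated Fgfr1 counts on transcripts with the exon of the first Ig domain, among transcripts with or without it, 1 point per library (blue ZT16, orange ZT4) with mean ± SD per group. The day 3 libraries sit between 46.2 and 63.1%, above the uninjured libraries at 38.2 to 43.5%.

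The times were compared first in uninjured muscle, to see whether the cells differ between ZT16 and ZT4 before injury. Fgfr2, Spry1 and Spry4 were higher at ZT16. Of the 10 genes, 3 rose, beside 8.53% of all genes tested, none fell, beside 9.12%, and 7 did not pass. Of the 10 log2 changes 9 were above 0, with a median of 0.21 beside 0 over all genes.

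Fgfr2 (chromosome 7, annotated from 130162451 to 133123350 because 1 transcript reads through to the gene Ctbp2) had 15.5, 3.71 and 15.5 CPM at ZT16, against 0.113, 0 and 0 CPM at ZT4. The groups did not overlap. In counts these were 108, 26 and 109 at ZT16, against 1, 0 and 0 at ZT4. The ratio of CPM was 268, with an exact 95% interval of 47.6 to 10600 that covers counting error only (edgeR adjusted p = 9.47e-05). At ZT16, 168 of the estimated counts fell on Fgfr2-207, 36 on Fgfr2-215 and 29.6 on the read-through transcript Fgfr2-226, which shares 314 exonic bases with Ctbp2. Without Fgfr2-226 the call remained (adjusted p = 5.49e-05). Replicate 2, whose immediate early genes were low, had 26 counts alone, a ratio of 86.0 to the ZT4 libraries (exact 95% interval 14.1 to 3530), so this single library was above all ZT4 libraries. An edgeR fit with it as the only ZT16 library gave an adjusted p of 0.0217, in which its spread is assumed to be that of the other groups.

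Spry1 had 584, 267 and 449 CPM at ZT16, against 256, 252 and 265 CPM at ZT4 (0.75 ± 0.25, edgeR adjusted p = 0.0405). Spry4 had 120, 34.0 and 82.6 CPM at ZT16, against 33.5, 30.1 and 33.8 CPM at ZT4 (1.28 ± 0.28, edgeR adjusted p = 0.00285). For both genes the groups did not overlap, but ZT16 replicate 2 lay just above the highest ZT4 library. The high values were those of ZT16 replicates 1 and 3, the libraries with high immediate early genes, and the part of that difference was not tested. Without these 2 libraries Spry1 was at 0.03 (adjusted p = 1) and Spry4 at 0.05 (adjusted p = 0.988), in the same fit with 1 ZT16 library. Spry1 also lost its call without any 1 uninjured library other than ZT16 replicate 2, with adjusted p from 0.0899 to 0.246, and without any of 3 injured libraries (0.0503 to 0.0596). Both lost it when the fit held the uninjured libraries alone (adjusted p = 0.112 and 0.108).
Fgfr1 had 979, 886 and 1064 CPM at ZT16, against 842, 820 and 804 CPM at ZT4. The groups did not overlap, yet it did not pass (0.25 ± 0.15, adjusted p = 0.263). Fgfr4 had 720, 710 and 1003 CPM at ZT16, against 679, 697 and 866 CPM at ZT4, with overlap (0.12 ± 0.19, adjusted p = 0.734). Spry2 was at 0.01 ± 0.28 and Fgf2 at −0.07 ± 0.56.

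**Figure D5:**
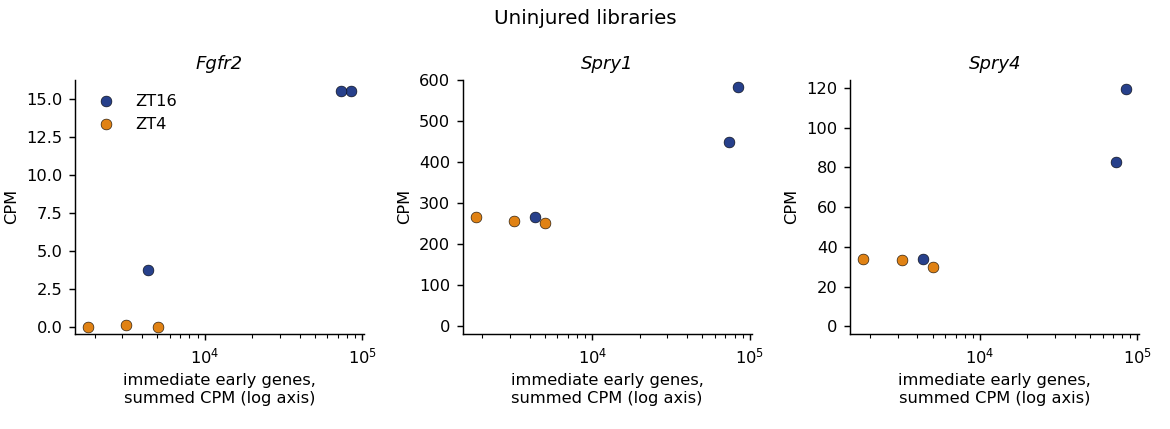
CPM of Fgfr2, Spry1 and Spry4 in the 6 uninjured libraries (linear axis) against the summed CPM of 15 immediate early genes (log axis), blue ZT16 and orange ZT4. ZT16 replicate 2 sits with the ZT4 libraries for Spry1 and Spry4, and above them for Fgfr2 at 3.71 CPM.

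After injury no difference between ZT16 and ZT4 was called for any of the 10 genes. Over all genes tested, edgeR called 0 (0%) at day 1 and 0 (0%) at day 3. At an unadjusted p under 0.05 there were 920 and 1003 genes, and the smallest adjusted p-values were 0.187 and 0.143. DESeq2 called 27 genes at day 1 and 4 at day 3, limma voom 46 and 0, and none of these was among the 10. At day 1 the log2 changes of Fgfr1, Fgfr4 and Spry1 were 0.13 ± 0.13, 0.06 ± 0.17 and −0.20 ± 0.22. At day 3 they were −0.03 ± 0.13, 0.15 ± 0.17 and −0.02 ± 0.22.

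The time effect after injury was then set against that in uninjured muscle by an interaction contrast. In edgeR, Fgfr2 and Spry4 passed at both days and the other eight genes did not. At day 1 this was 2 of 10 genes, beside 7.46% of all genes, and at day 3 2 of 10, beside 12.8%. The difference for Spry4 was −1.43 ± 0.37 at day 1 (edgeR adjusted p = 0.0213) and −1.62 ± 0.38 at day 3 (adjusted p = 0.00654). For Fgfr2 the fitted differences rest on the single count at uninjured ZT4, with adjusted p of 0.00292 and 0.000624, and its levels at day 1 were 0.139 to 1.80 CPM at ZT16 and 0.138 to 1.71 at ZT4. Without uninjured ZT16 replicates 1 and 3, which leaves 1 library whose spread is assumed to be that of the other groups, Spry4 was at −0.20 and −0.39 (adjusted p = 0.88 and 0.585) and Fgfr2 at −5.81 and −6.17 (adjusted p = 0.0991 and 0.0406). Spry4 also lost its day 1 call without uninjured ZT16 replicate 1 (−0.99, adjusted p = 0.0829) or ZT4 replicate 2 (−1.36, adjusted p = 0.0536). Spry1 was at −0.95 ± 0.33 at day 1 (adjusted p = 0.0865) and −0.77 ± 0.33 at day 3 (adjusted p = 0.137). It passed at day 1 in DESeq2 (−0.96, adjusted p = 0.034) and at both days in edgeR without the filter on low counts (adjusted p = 0.00011 and 0.00369). With limma voom, Fgfr2 missed the threshold at day 1 (adjusted p = 0.0534).

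The other genes of the pathway were read from 7 lists of 86 genes, of which 69 were tested. They moved in both directions after injury. At day 1, 26 rose and 27 fell, relative to uninjured muscle, when 34.6% of all genes tested rose and 40.6% fell. At day 3, 23 rose and 33 fell, beside 37.9% and 39.1% of all genes. These shares of all genes are the background for each list below, and the day 1 counts over the 69 genes are near it. At uninjured ZT16, 7 rose and 6 fell relative to ZT4, beside 8.53% and 9.12% of all genes.

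Of 16 other ligand genes, 3 passed the filter on low counts. None passed at day 1. At day 3, Fgf21, an endocrine FGF, rose relative to uninjured muscle, with 2.82 ± 0.66 CPM at day 3 against 0.0376 CPM, which was 2 counts in all (edgeR adjusted p = 2.19e-07). With 4 counts in all at day 1, Fgf21 passed the filter only through day 3, so its rise is not independent of the filter. Fgf16 fell (−1.25 ± 0.29). The ligands Fgf5, Fgf6 and Fgf9 were below the filter, at 0.522, 0.246 and 0.600 CPM on average at day 3, where Fgf6 had a median of 0. Some day 3 libraries had more genes above 0 counts, as given above, and the part of this was not tested.
Of the FGF homologous factors, which stay in the cell and bind sodium channels, Fgf13 had 9.20 ± 4.27 CPM at day 1 and 8.04 ± 1.98 at day 3, against 26.7 in uninjured muscle, and fell in both. Fgf11 fell at day 1 (−0.72 ± 0.18) and rose at day 3 (1.21 ± 0.18). Fgfbp1, a carrier that releases FGFs from the matrix, rose, with 4.23 ± 3.11 CPM at day 1 and 12.8 ± 2.84 at day 3, against 0.118 CPM in uninjured muscle. With 6 counts in all in uninjured muscle, it passed the filter only through groups after injury, so its rise is not independent of the filter. Fgfbp3 fell in both comparisons (−2.12 ± 0.36 and −2.35 ± 0.36). The co-receptor genes Kl and Klb were too low to be tested, at 0.278 and 0.245 CPM in uninjured muscle.

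Of 21 heparan sulfate proteoglycans and their enzymes, 6 rose and 8 fell at day 1, beside 34.6% and 40.6% of all genes, with a median of −0.13 beside −0.125. At day 3, 6 rose and 12 fell, beside 37.9% and 39.1% of all genes, with a median of −0.62 beside −0.026. Gpc1, a glypican, had 497 ± 36.5 CPM at day 1 and 664 ± 42.5 at day 3, against 167 ± 33.1 in uninjured muscle, and the syndecan gene Sdc1 118 ± 10.8 and 141 ± 17.6 against 36.4 ± 11.9 CPM. Both rose in both comparisons. Sulf1, which removes 6-O sulfates from heparan sulfate, fell by 2.20 ± 0.15 at day 3, as did Hs6st2, which adds them (−1.17 ± 0.08). The syndecan gene Sdc4 fell between the days, with 199 ± 26.7 CPM at day 3 against 843 ± 92.4 at day 1 (−2.08 ± 0.14).

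Of 20 receptor adaptors and members of the Ras-ERK relay, 8 rose and 10 fell at day 1 (34.6% and 40.6% of all genes), and 7 rose and 10 fell at day 3 (37.9% and 39.1% of all genes). The adaptor gene Grb2 had 99.6 ± 9.55 CPM at day 1, against 41.6 in uninjured muscle, and rose by 1.26 ± 0.08. The Ras gene Nras rose by 1.53 ± 0.08 at day 3. Gab1, a docking protein gene, fell by 1.65 ± 0.14 at day 1 and by 2.39 ± 0.15 at day 3, and the Raf genes Araf (−1.03 ± 0.08 at day 1) and Braf (−1.68 ± 0.11 at day 3) fell too.

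Of 14 feedback inhibitors and ERK-driven genes, 13 were tested. At day 1, 5 rose and 5 fell, near the 34.6% and 40.6% of all genes, and at day 3, 4 rose and 6 fell, beside 37.9% and 39.1%. Etv5, a transcription factor gene induced by FGF signalling, had 68.7 ± 13.1 CPM at day 1 and 33.3 ± 6.28 at day 3, against 158 ± 40.3 in uninjured muscle, and fell in both (−1.16 ± 0.12 and −2.21 ± 0.12). Dusp5, which encodes a nuclear ERK phosphatase, rose in both (4.99 ± 0.38 and 3.85 ± 0.38), with 137 ± 17.8 CPM at day 1 and 62.1 ± 15.3 at day 3, against 6.89 ± 8.55 in uninjured muscle. Spred1, a relative of Sprouty, fell by 1.38 ± 0.20 at day 3, and Cbl, a ubiquitin ligase gene, rose in both (1.60 ± 0.18 and 1.24 ± 0.17). Between uninjured ZT16 and ZT4, Dusp5 (3.03 ± 0.66) and the receptor inhibitor gene Errfi1 (2.49 ± 0.45) rose, while Etv5 fell (−0.64 ± 0.18, edgeR adjusted p = 0.0143). In the uninjured libraries Dusp5 ran from 0.371 to 21.1 CPM and Errfi1 from 240 to 3698 CPM. The ZT16 libraries include replicates 1 and 3 with high immediate early genes. The part of that difference in Dusp5, Errfi1 and Etv5 was not tested.
Of the 7 tested genes of the p38 branch, a stress kinase pathway, 6 rose and 1 fell at day 1, beside 34.6% and 40.6% of all genes, with a median of 1.19 beside −0.125. At day 3, 3 rose and 1 fell, beside 37.9% and 39.1% of all genes, with a median of 0.30 beside −0.026. Map2k3, which activates p38, had 647 ± 49.1 CPM at day 1, against 103 ± 31.2 in uninjured muscle (2.69 ± 0.09), and the p38 gene Mapk13 had 912 counts over the 8 day 1 libraries against 4 over the uninjured ones. Mapk13, and Mapk11 with 24 counts in uninjured muscle, passed the filter on low counts through groups after injury. Both are among the 6 that rose at day 1, and their rises are not independent of the filter. Map2k6, a relative of Map2k3, fell at day 3 (−1.89 ± 0.30).

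The tested genes whose 6 group means were nearest in shape to those of a member were found by the root mean square difference of centred log2 CPM over the 6 groups. Before the log, 1 CPM was added to each value, which shrinks differences of genes at low levels such as Fgf2 and Fgfr2. For Fgfr1 they were Vsig10 (0.061), Galt (0.069) and Tspan7 (0.11), beside a range of 3.00 of Fgfr1 itself. For Fgfr4 they were Ncoa1 (0.063), Fam131a (0.067) and Gm10399 (0.082), and for Spry1 Lgalsl (0.043), Syt3 (0.059) and Pnrc1 (0.077). The pattern of Fgfr2 was less closely matched, by Junos (0.23), Frat2 (0.33) and Nnmt (0.35). Spry2 was nearest to Agpat2 (0.10), Tnfrsf1a (0.13) and Pcbp3 (0.14), and Fgf2 to Vps33b (0.028), Ing3 (0.052) and Arhgap39 (0.054). The range of Fgf2 over the groups was 0.77 on this scale, where the added 1 CPM shrinks its changes and eases close matches.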

How the data were processed

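The deposited files hold RSEM output per transcript, 1 file per library. Per the file headers, the authors gave an expected count (estimated reads), TPM and effective length for each of 103732 transcripts. The submitters' processing notes name the genome mm10 and the tools RSEM 1.3.3, STAR 2.5.2, Trimmomatic 0.33 and, without a version, DESeq2; their roles and the annotation release are not given in the sources used here. Per the labels' protocols, RNA came from lightly fixed ZsGreen-positive cells by a kit for fixed tissue, and libraries from SMART-seq v4. Expected counts were summed per Ensembl gene and rounded, giving 43430 genes; 42546 matched GENCODE M21 by identifier. TPM values deposited by the authors were summed per gene, for levels between genes.

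All 22 libraries entered 1 fit of edgeR 4.0.16 (R 4.3.3) with 1 mean per group, TMM normalization (0.942 to 1.09 across libraries) and robust dispersion estimates. The edgeR filter (minimum count 10, minimum total 15) kept 15084 genes. Comparisons were contrasts of group means, with Benjamini-Hochberg adjustment over all genes tested and a threshold of 0.05. An SE is the size of the log2 change divided by the root of its F statistic. The alternatives were DESeq2 1.42.0, limma 3.58.1 (voom), other scaling and filters, effective length offsets (deposited by the authors, in bases), single times and libraries left out. The scripts were tested on simulated data. Exact intervals were computed with scipy 1.17.1. The 10 members and the gene lists were chosen with earlier results of these data known. Pathway genes named are up to 4 per list and comparison with the smallest p past the threshold; Fgf5, Fgf6, Fgf9, Kl and Klb were added after their values were seen, and some genes within the rule are left unnamed. Some items are not reported here.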

Additional observations from a re-analysis of the deposited data

Results flagged for a closer look

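In 40 tests of single libraries within groups of 4, 2 values stood apart from their group by Dixon's criterion, which chance gives in about 1 in 20 groups. Fgfr2 had 2.36 CPM in day 3 ZT16 replicate 1, against 0.354 to 0.640 CPM in the other libraries of that group. Fgf7 had 1.23 CPM in day 1 ZT4 replicate 1, against 0 to 0.158 CPM in the others. The time effect, ZT16 minus ZT4 on the log2 scale, differed after injury from that in uninjured muscle for Fgfr2, by −7.46 at day 1 and −7.82 at day 3, fitted values that rest on 1 count at uninjured ZT4. It differed for Spry4 as well, by −1.43 at day 1 and −1.62 at day 3.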

How the results depend on the processing

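Leaving out 1 library at a time kept the call for 1726 log2 changes of the members, gained 6 calls, lost 28 and reversed none. Values that missed the threshold in both fits counted as kept even where their sign changed. An example is Fgf2 for ZT16 versus ZT4 at day 1, from −0.27 to 0.36. Other settings kept 818, gained 10, lost 30 and reversed 2, which were Fgfr2 within ZT16 alone (−3.33 at day 1 and −3.47 at day 3 against uninjured muscle). For ZT16 versus ZT4 after injury, where edgeR called 0 genes, the count at day 1 was 270 without a filter, 27 with DESeq2, 46 with limma voom, 1 with length offsets and 2 with the groups compared alone, and at day 3 it was 127 without a filter, 4 with DESeq2 and 1 with the groups compared alone. With 1 library left out it was 0 to 10 at day 1 and 0 to 1 at day 3. For uninjured ZT16 versus ZT4 (2663 genes, 3 members), the groups alone gave 577 genes and 1 member, 1 library left out 1768 to 2898 genes and 2 to 3 members. For the time effect at day 1 against uninjured muscle (1125 genes, 2 members), limma voom gave 737 genes and 1 member, the groups alone 514 and 1, and 1 library left out 648 to 1596 and 1 to 3. Within ZT4 and within ZT16, 5 members were called between day 3 and day 1, against 8 over both times. Without uninjured ZT16 replicates 1 and 3, a setting chosen after seeing the data, the uninjured comparison gave 467 genes and 1 member, the time effect at day 1 134 and 0, and that at day 3 473 and 1. Leaving out day 1 ZT16 replicate 4 as well gave 638 and 1, 153 and 0, and 597 and 1, with 10 genes for the times at day 1. The causes were not tested. The replicate numbers did not pair the libraries, with correlations of deviations from −0.091 to 0.105. With a replicate block, 11102 genes and 6 members were called at day 1, 11419 and 5 at day 3, and 2603 and 3 between the uninjured times, and no member's call changed. Fgf2, Fgf7, Fgfr2 and Fgfr3 had few counts, so changes in them were detectable only when large.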
